A study of Mus musculus with 21 samples.

Results

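The 9 genes described here are Cebpa, Trib1, Slc35e4, Lypla2, Pde7b, Slc25a34, Crim1, Lrrc8a and Ppp1r10, of 55416 gene identifiers in the count table. They were selected on their measured RNA levels, because these were lower in hypoxic knockout libraries than in normoxic knockout or hypoxic control libraries of these same data. Their falls in those 2 comparisons are therefore a description and carry no test. All 9 were among the 19854 genes that passed the filter on low counts.

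RNA was sequenced from mouse brains at postnatal day 57. The groups are KO hypoxia (7 libraries), Flox hypoxia (4 libraries analysed of 6 labelled, replicates 3 to 6), KO normoxia (4 libraries) and Flox normoxia (4 libraries). KO mice carried Slco1c1-iCreERT2, Pdcd10fl/fl and Aldh1l1-EGFP/Rpl10a, and Flox mice carried Pdcd10fl/fl and Aldh1l1-EGFP/Rpl10a. Hypoxia was 12% oxygen for 7 days and normoxia was 21% oxygen. Slco1c1-iCreERT2 is a tamoxifen-inducible Cre recombinase active in brain endothelium, so Pdcd10 (the cavernous malformation gene CCM3) is meant to be deleted there. The reporter carried by all 4 groups tags ribosomes of Aldh1l1-expressing astrocytes. The design text gives 50 micrograms of 4-hydroxytamoxifen on postnatal day 1. It also counts uninjected Cre carriers among the controls without listing them, so genotype and injection status of single controls cannot be told apart here. The design text describes pull-down of astrocyte ribosomes, whereas the sample records describe homogenised brain tissue. Whether every library came from its own animal is not recorded, and the p-values cover only the spread seen between libraries, which may be technical.

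Library totals ran between 45399320 and 65261791 counts. Pdcd10 averaged 9.55 ± 1.79 counts scaled to a common library total (CPM) in KO hypoxia and 27.04 ± 2.85 CPM in Flox hypoxia, and 8.81 ± 1.17 CPM in KO normoxia against 21.9 ± 1.80 CPM in Flox normoxia (SD). All samples are tagged male, yet the Y-linked gene Ddx3y was at or below 3.24 CPM in KO hypoxia 6 and 7, Flox hypoxia 6 and Flox normoxia 3 and 4, and at or above 49.4 CPM in the others. Slco1c1, the gene whose promoter drives the Cre, set Flox hypoxia apart from all other libraries: it had 256 to 491 CPM in KO hypoxia against 94.1, 103, 127 and 105 CPM in Flox hypoxia, and 194 to 476 CPM in KO normoxia against 608 to 838 CPM in Flox normoxia. Its part in the comparisons with Flox hypoxia was not tested. The 10 astrocyte markers summed to between 35814 and 60969 CPM in every library, above the 9 neuron markers at 706 to 3678 CPM. The 7 endothelial markers summed to between 12.1 and 63.7 CPM. Which cells lost Pdcd10 RNA was not tested. KO hypoxia libraries 1, 2 and 3 stood apart from the rest: their mitochondrially encoded RNAs summed to 395 to 649 CPM, against 29.2 to 58.2 CPM in KO hypoxia libraries 4 to 7. Their astrocyte sum was 35814 to 38688 CPM, against 43022 to 52935 CPM in libraries 4 to 7. In such bulk RNA, fewer cells of a type and less RNA per cell cannot be told apart.

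Cebpa encodes C/EBPα, a basic leucine zipper transcription factor known for driving adipocyte, liver and myeloid differentiation and the metabolic genes that go with it. Trib1 encodes Tribbles 1, a pseudokinase that brings C/EBPα to the ubiquitin ligase COP1 and so leads to its degradation. The other genes have separate roles. Lrrc8a is the obligatory subunit of volume-regulated anion channels, through which swollen cells, astrocytes among them, release chloride and small organic solutes. Slc25a34 belongs to the mitochondrial carrier family and Slc35e4 to a family of nucleotide-sugar transporter relatives. Pde7b is a cAMP-specific phosphodiesterase. Lypla2 is an acyl-protein thioesterase that removes palmitate from proteins, Crim1 is a transmembrane protein that binds bone morphogenetic proteins, and Ppp1r10 (PNUTS) is a nuclear targeting subunit of protein phosphatase 1.

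The 250 bases before the annotated start are shown for Cebpa and for the pair of genes whose levels ran most alike across libraries, Lrrc8a and Slc35e4. They are from RefSeq, build GRCm38.p6, which is older than the build of the counts (GRCm39); 8 of the 9 genes matched an entry. The stretches are chr7:35119043-35119292 on the plus strand (Cebpa), chr2:30237519-30237768 on the plus strand (Lrrc8a) and chr11:3914665-3914914 on the minus strand (Slc35e4), each 5′ to 3′ with motif matches in capitals.
Cebpa: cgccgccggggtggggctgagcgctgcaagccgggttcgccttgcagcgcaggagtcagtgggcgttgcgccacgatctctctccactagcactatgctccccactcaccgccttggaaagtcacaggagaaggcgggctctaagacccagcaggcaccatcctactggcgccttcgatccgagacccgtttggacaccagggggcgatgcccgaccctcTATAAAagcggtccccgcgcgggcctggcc
Lrrc8a: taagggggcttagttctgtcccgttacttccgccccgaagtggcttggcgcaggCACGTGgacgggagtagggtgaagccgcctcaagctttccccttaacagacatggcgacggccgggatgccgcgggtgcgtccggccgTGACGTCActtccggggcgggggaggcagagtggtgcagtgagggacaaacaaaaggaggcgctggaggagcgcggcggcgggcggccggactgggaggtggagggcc
Slc35e4: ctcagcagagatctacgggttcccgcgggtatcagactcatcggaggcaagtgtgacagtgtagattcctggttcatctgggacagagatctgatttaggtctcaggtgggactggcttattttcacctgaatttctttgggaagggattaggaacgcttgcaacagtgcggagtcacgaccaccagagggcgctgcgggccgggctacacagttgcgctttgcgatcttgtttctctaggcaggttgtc
The capitals mark a TATA box (TATAAA) in Cebpa, and in Lrrc8a an E-box (CACGTG) 196 bases and a cAMP response element (TGACGTCA) 108 bases before the start. The E-box letters contain ACGTG, the core that hypoxia-inducible factors also bind. On both strands of 27025 mouse promoters of this length, TATAAA was in 13% of them, CACGTG in 6.05%, TGACGTCA in 1.62%, ACGTG in 16.6%, CCAAT in 34.5% and the C/EBP core TTGCNNAA in 9.55%. Of the 8 promoters matched here, 2 held TATAAA, 1 held CACGTG, 1 held TGACGTCA, 2 held ACGTG, 2 held CCAAT and 0 held TTGCNNAA. Slc35e4 held none of the 6 motifs in this window. These matches describe the letters only.

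Per kilobase of transcript, Lypla2 was the most abundant of the 9 genes, with a median of 78.2 RPKM over the 19 libraries. Cebpa followed with a median of 35.8 RPKM (20.2 to 100.7), then Slc25a34 with 25.02, Trib1 with 20.4, Slc35e4 with 14.7, Ppp1r10 with 12.5, Lrrc8a with 8.70 and Crim1 with 7.16 RPKM. Pde7b was the lowest with a median of 2.51 RPKM (2.01 to 4.22). All other levels below are CPM, which compare libraries and not genes.

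**Figure D1:**
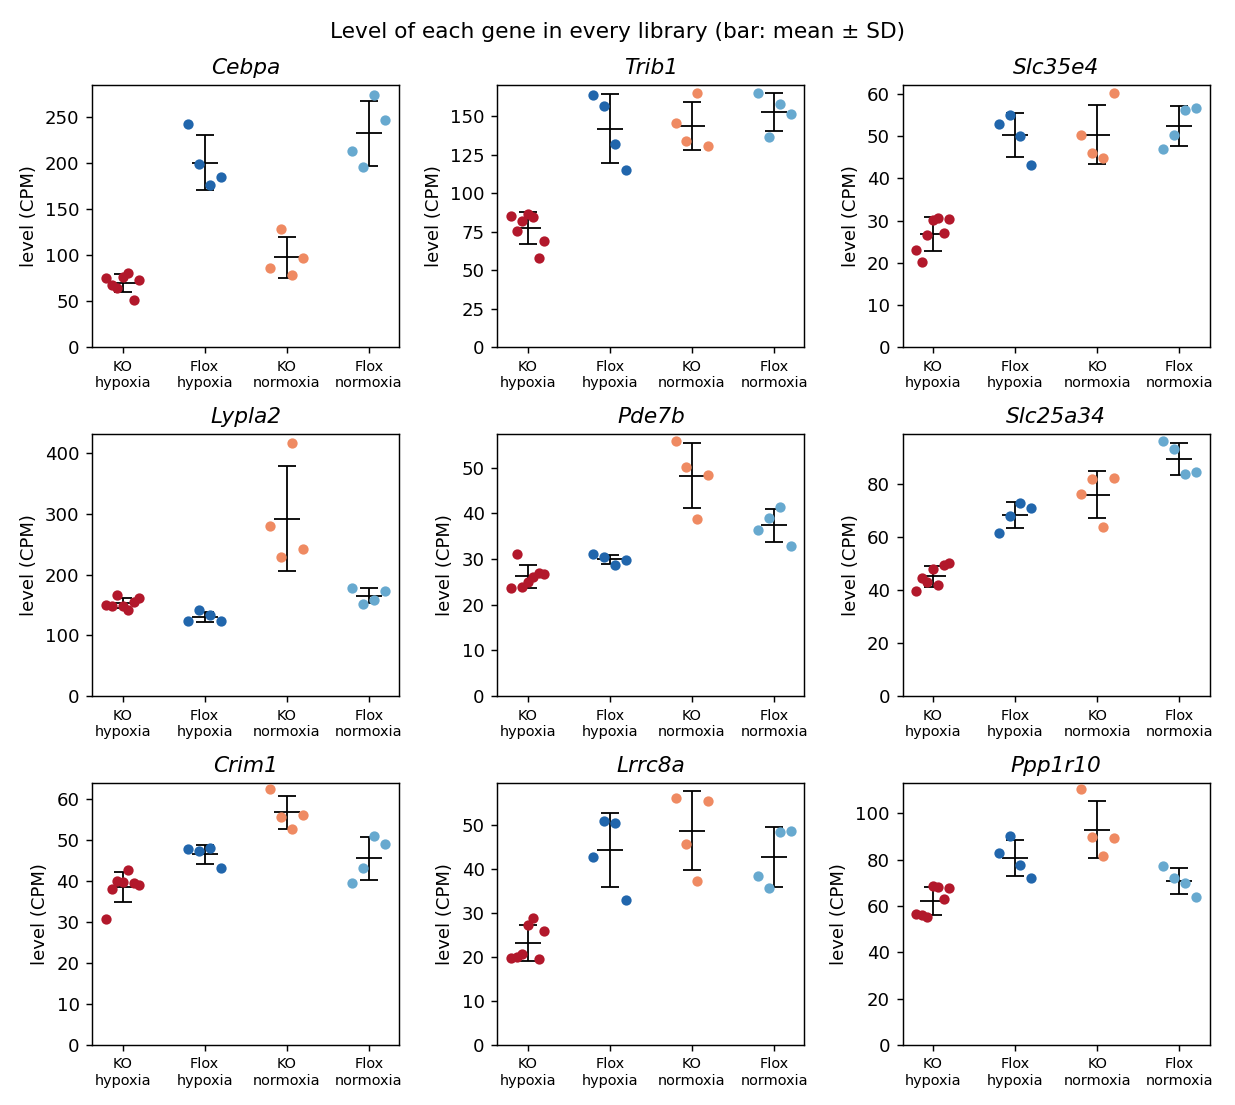
Level of each of the 9 genes (CPM, linear axis starting at 0) in every library of the 4 groups; points are libraries and bars give mean ± SD. Cebpa was low in both KO groups, Trib1, Slc35e4, Slc25a34 and Lrrc8a were lowest in KO hypoxia, and Lypla2 and Pde7b had their highest means in KO normoxia.

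Cebpa was low in the KO brains at both oxygen levels. In KO hypoxia its level was 51.2 CPM at the lowest, 72.6 CPM at the median and 80.5 CPM at the highest of 7 libraries, against 242, 198, 176 and 184 CPM in Flox hypoxia. In KO normoxia it was 85.3, 129, 78.7 and 96.8 CPM, against 212, 195, 273 and 247 CPM in Flox normoxia. Every KO library lay below every Flox library at either oxygen level, while KO hypoxia and KO normoxia overlapped. Means were 69.8 ± 9.80, 200.1 ± 29.6, 97.4 ± 22.1 and 232 ± 35.0 CPM in KO hypoxia, Flox hypoxia, KO normoxia and Flox normoxia (SD). The fitted log2 differences were -1.52 ± 0.13 (SE) for KO hypoxia against Flox hypoxia and -0.48 ± 0.14 for KO hypoxia against KO normoxia. The KO difference at normal oxygen, which was not used to pick the gene, was -1.25 ± 0.16 on the log2 scale (edgeR quasi-likelihood adjusted p = 0.000167). Without KO hypoxia libraries 1 to 3, the log2 difference of KO hypoxia from Flox hypoxia was -1.52 and that from KO normoxia -0.47. Cebpa thus differed by genotype more than by oxygen in its fitted values: its hypoxia effect was -0.48 in KO and -0.21 ± 0.16 in Flox brains, a difference of -0.27 ± 0.21. That difference also rests on the comparisons used for picking.

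Trib1 was low in KO hypoxia and much alike in the other 3 groups. Its 7 KO hypoxia libraries ran between 57.8 and 86.2 CPM with a median of 82.0 CPM, against 164, 157, 132 and 115 CPM in Flox hypoxia. The KO normoxia libraries had 145, 134, 165 and 131 CPM, and the Flox normoxia libraries had 165, 136, 158 and 151 CPM. Every KO hypoxia library was below every one of the other 12, and those 3 groups overlapped one another. KO hypoxia was lower by a log2 difference of -0.88 ± 0.11 than Flox hypoxia and of -0.90 ± 0.11 than KO normoxia. In contrast to Cebpa, the fit called no difference for Trib1 between KO normoxia and Flox normoxia (-0.09 ± 0.13, adjusted p = 0.695, edgeR). The fitted hypoxia effect differed between KO and Flox brains by -0.79 ± 0.17 log2 units, a value that rests on the comparisons used for picking.

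The channel subunit Lrrc8a and the transporter relative Slc35e4 were lower in KO hypoxia than in each of the other 3 groups. Lrrc8a had 19.4 CPM at the lowest, 20.7 CPM at the median and 28.9 CPM at the highest KO hypoxia library, against 42.7, 50.9, 50.5 and 33.0 CPM in Flox hypoxia. It had 56.3, 45.7, 37.3 and 55.6 CPM in KO normoxia, against 38.4, 35.7, 48.5 and 48.7 CPM in Flox normoxia. All 7 KO hypoxia libraries were below all 12 others, narrowly so below Flox hypoxia 6. The log2 differences were -0.94 ± 0.15 against Flox hypoxia and -1.08 ± 0.15 against KO normoxia. Slc35e4 ran between 20.1 and 30.6 CPM in KO hypoxia with a median of 26.95 CPM, against 52.8, 55.1, 50.0 and 43.2 CPM in Flox hypoxia. KO normoxia had 50.3, 46.1, 44.9 and 60.2 CPM of Slc35e4, and Flox normoxia had 47.0, 50.2, 56.3 and 56.6 CPM. Its KO hypoxia libraries also lay below all the others, with log2 differences of -0.91 ± 0.11 against both Flox hypoxia and KO normoxia. The hypoxia effect differed between KO and Flox brains by -1.12 ± 0.23 log2 units for Lrrc8a and by -0.85 ± 0.17 for Slc35e4, fitted values that rest on the comparisons used for picking.

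Slc25a34, the mitochondrial carrier, had lower mean levels in hypoxia than in normoxia in either genotype. Its KO hypoxia libraries had 39.7 to 50.1 CPM with a median of 44.6 CPM, against 61.4, 68.0, 72.9 and 70.8 CPM in Flox hypoxia. KO normoxia had 76.4, 81.7, 63.6 and 82.3 CPM, and Flox normoxia had 96.1, 93.3, 83.8 and 84.6 CPM. Each KO hypoxia library was below every other library, and Flox hypoxia lay wholly below Flox normoxia. KO hypoxia differed by -0.60 ± 0.08 on the log2 scale from Flox hypoxia and by -0.75 ± 0.08 from KO normoxia. Flox hypoxia differed by -0.39 ± 0.09 from Flox normoxia, which missed the threshold in edgeR (adjusted p = 0.155, unadjusted p = 0.000454) and passed it in DESeq2 (log2 -0.38, adjusted p = 0.0246).

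Lypla2 and Pde7b were not called lower in KO hypoxia than in Flox hypoxia, and their mean levels were highest in KO normoxia, as were those of Lrrc8a, Crim1 and Ppp1r10. Lypla2 had 142 CPM at the lowest, 150.3 CPM at the median and 166 CPM at the highest KO hypoxia library, against 123, 141, 134 and 123 CPM in Flox hypoxia. It had 279.6, 229, 417 and 242 CPM in KO normoxia, against 178, 152, 158 and 173 CPM in Flox normoxia. The KO normoxia libraries were above all 15 others, with replicate 3 the highest by far, and KO hypoxia lay above and not below Flox hypoxia. The log2 differences were 0.23 ± 0.12 for KO hypoxia against Flox hypoxia and -0.93 ± 0.11 for KO hypoxia against KO normoxia. Pde7b had 23.6 to 31.2 CPM in KO hypoxia with a median of 26.2 CPM, against 31.1, 30.4, 28.6 and 29.8 CPM in Flox hypoxia. KO normoxia had 55.9, 50.1, 38.8 and 48.5 CPM of Pde7b, and Flox normoxia had 36.3, 39.1, 41.4 and 32.8 CPM. KO hypoxia and Flox hypoxia overlapped for Pde7b, with a log2 difference of -0.19 ± 0.09, while KO hypoxia was wholly below KO normoxia, at -0.88 ± 0.09. In the annotation Pde7b spans the pseudogenes Gm17229 and Gm17230.

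Crim1 and Ppp1r10 had their lowest mean in KO hypoxia and their highest in KO normoxia. Crim1 had 30.6 CPM at the lowest, 39.4 CPM at the median and 42.5 CPM at the highest KO hypoxia library, against 47.6, 47.2, 47.9 and 43.0 CPM in Flox hypoxia. It had 62.3, 55.6, 52.7 and 56.0 CPM in KO normoxia, against 39.4, 43.1, 50.8 and 48.8 CPM in Flox normoxia. Its KO normoxia libraries were above all others, and its KO hypoxia libraries were below those of Flox hypoxia but overlapped those of Flox normoxia. The log2 differences of KO hypoxia were -0.27 ± 0.08 from Flox hypoxia and -0.56 ± 0.08 from KO normoxia. With the replicate number as a block the first was -0.23 and missed the threshold, and it missed it without Flox hypoxia 3 (-0.26), 4 (-0.27) or 5 (-0.26) and without KO hypoxia 1 to 3 (-0.22). Crim1 overlaps Fez2 in the annotation, and Fez2 differed by 0.12 ± 0.06 between KO hypoxia and Flox hypoxia and was called in none of the 4 comparisons. Ppp1r10 ran between 55.4 and 68.6 CPM in KO hypoxia with a median of 63.2 CPM, against 82.7, 90.4, 77.5 and 72.0 CPM in Flox hypoxia. KO normoxia had 111, 89.9, 81.8 and 89.3 CPM of Ppp1r10, and Flox normoxia had 77.2, 72.2, 70.0 and 63.7 CPM. The 2 KO groups did not overlap, and KO hypoxia overlapped Flox normoxia. KO hypoxia differed in Ppp1r10 by -0.37 ± 0.09 on the log2 scale from Flox hypoxia (-0.28 and past no threshold without KO hypoxia 1 to 3) and by -0.58 ± 0.09 from KO normoxia.

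Counted over the 9 genes, 7 were called lower in KO hypoxia than in Flox hypoxia at an adjusted p under 0.05, against 9.37% of all genes tested, with Lypla2 and Pde7b the exceptions (either direction 19.7%, higher 10.4%). The same 7 had every KO hypoxia library below every Flox hypoxia library (6.52% of all genes), and Lypla2 had every one above (5.37%). All 9 were called lower in KO hypoxia than in KO normoxia, against 7.77% of all genes (either direction 12.5%), and 8 of them, without Cebpa, did not overlap between these groups (4.74%). These counts follow from how the genes were picked. The Cebpa call against KO normoxia was lost with the replicate number as a block (-0.43, adjusted p = 0.0886), with the 2 groups fitted alone (-0.49, adjusted p = 0.0674), without KO hypoxia 1 to 3, and without KO hypoxia 3 (-0.46), KO normoxia 2 (-0.32) or KO normoxia 4 (-0.48). Of all genes tested, 0.771% (153 genes) had every KO hypoxia library below every other library, among them Trib1, Slc35e4, Slc25a34 and Lrrc8a. For those 4 the highest KO hypoxia library and the lowest other library were 86.2 and 115 CPM (Trib1), 30.6 and 43.2 CPM (Slc35e4), 50.1 and 61.4 CPM (Slc25a34), and 28.9 and 33.0 CPM (Lrrc8a). Cebpa missed this by one library pair, with 80.5 CPM in KO hypoxia 5 and 78.7 CPM in KO normoxia 3.

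At normal oxygen, 5 of the 9 genes differed between KO and Flox brains, and most of these were higher in KO. This comparison was not used for picking, but it shares the KO normoxia libraries with one that was, and high values there favour both a pick and a rise here. Lypla2 rose by 0.82 ± 0.13 on the log2 scale (adjusted p = 0.000984), Ppp1r10 by 0.39 ± 0.10 (adjusted p = 0.0198), Pde7b by 0.37 ± 0.10 (adjusted p = 0.0260) and Crim1 by 0.32 ± 0.09 (adjusted p = 0.0342) in edgeR's quasi-likelihood test. Cebpa alone fell, as given above. The 4 higher calls stood beside 6.90% of all genes called higher, and the single lower call beside 5.27% called lower (either direction 12.2%). Lypla2, Crim1 and Ppp1r10 lay wholly above Flox normoxia (9.82% of all genes) and Cebpa and Slc25a34 wholly below (9.84%). Trib1, Slc35e4 (-0.06 ± 0.13, adjusted p = 0.798), Lrrc8a (0.19 ± 0.17, adjusted p = 0.511) and Slc25a34 (-0.23 ± 0.09, adjusted p = 0.0988) were not called. The calls of Cebpa and Lypla2 held in each of the 28 alternative fits. The Pde7b call was lost without KO normoxia 1 (0.29), Flox normoxia 1 (0.36) or Flox normoxia 4 (0.31). The Crim1 call was lost without KO normoxia 1 (0.27), 3 (0.35) or 4 (0.32) and without Flox normoxia 1 (0.25) or 2 (0.29), and the Ppp1r10 call without KO normoxia 1 (0.30), Flox normoxia 3 (0.39) or Flox normoxia 4 (0.34). With Ddx3y as a covariate all 5 calls held, at -1.28 for Cebpa and 0.82 for Lypla2.

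Hypoxia without the KO moved none of the 9 genes past the threshold in edgeR, where 0.0856% of all genes (17) were called. At an unadjusted p under 0.05, Slc25a34, Lypla2 (-0.34 ± 0.13, unadjusted p = 0.0173) and Pde7b (-0.32 ± 0.10, unadjusted p = 0.00619) were lower in Flox hypoxia. These 3 also had every Flox hypoxia library below every Flox normoxia library, as did 4.53% of all genes. Cebpa (-0.21 ± 0.16, adjusted p = 0.748), Trib1 (-0.10 ± 0.13, adjusted p = 0.882) and Ppp1r10 (0.19 ± 0.10, adjusted p = 0.630) overlapped between these groups, as did Slc35e4, Crim1 and Lrrc8a. The comparison shares its Flox hypoxia libraries with one used for picking.

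**Figure D2:**
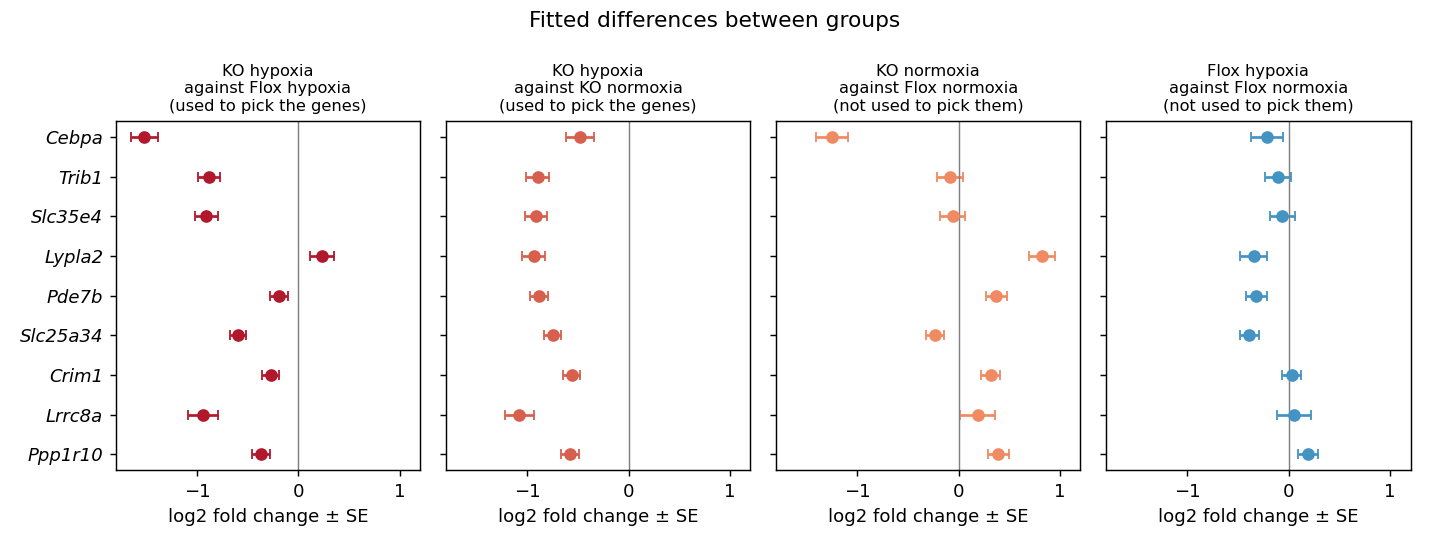
Fitted log2 fold change ± SE of each gene in the 4 comparisons, the 2 used to pick the genes at the left. Cebpa lies far below 0 in both KO against Flox comparisons (-1.52 and -1.25), Lypla2 lies above 0 in both, and Trib1 lies near 0 in the 2 comparisons at the right.

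Within KO hypoxia, libraries 1, 2 and 3, which had the high mitochondrially encoded RNA, were also the lowest for some of the genes. Slc35e4 was 20.1 to 26.6 CPM in libraries 1 to 3, against 26.95 to 30.6 CPM in libraries 4 to 7, and Ppp1r10 was 55.4 to 56.7 against 63.2 to 68.6 CPM. Lrrc8a was 19.7 to 20.7 CPM in libraries 1 to 3, against 19.4 to 28.9 CPM in libraries 4 to 7. Cebpa (64.7 to 75.5 against 51.2 to 80.5 CPM) and Trib1 (75.3 to 85.1 against 57.8 to 86.2 CPM) showed no such order, and library 6 was the lowest for both. Without libraries 1 to 3, the log2 differences of KO hypoxia from Flox hypoxia were -0.94 for Trib1, -0.81 for Lrrc8a, -0.78 for Slc35e4 and -0.54 for Slc25a34. Those from KO normoxia were -0.95 for Trib1, -0.94 for Lrrc8a, -0.77 for Slc35e4 and -0.68 for Slc25a34.

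**Figure D3:**
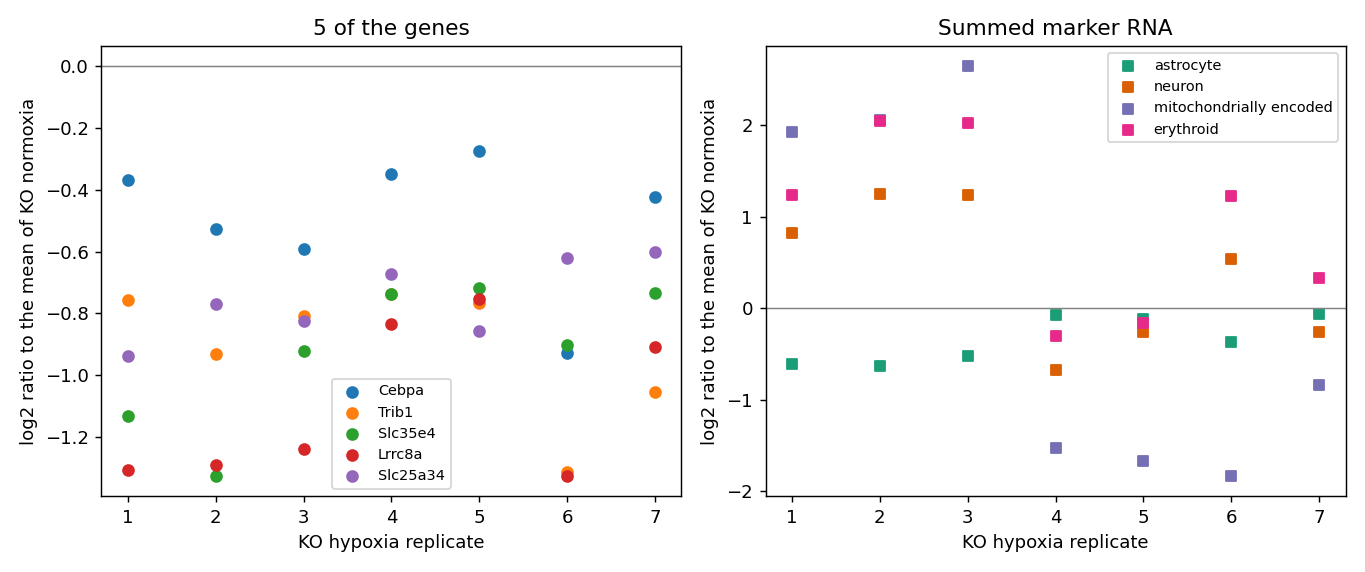
Log2 ratio of each KO hypoxia library to the mean of KO normoxia, for 5 of the genes (left) and for summed marker RNAs (right), by KO hypoxia replicate. Libraries 1 to 3 stand out in mitochondrially encoded RNA (395 to 649 CPM against 29.2 to 58.2 CPM in libraries 4 to 7), and all 7 libraries lie below 0 for the 5 genes.

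Several marker lists differed between the groups along with the 9 genes. Over all genes, 9.37% were called lower and 10.4% higher in KO hypoxia than in Flox hypoxia. In KO hypoxia against KO normoxia 7.77% were lower and 4.76% higher, and in KO normoxia against Flox normoxia 5.27% and 6.90%. Of the 10 astrocyte markers, 5 were called lower and 1 higher in KO hypoxia than in Flox hypoxia (median log2 -0.45), and 4 were lower against KO normoxia (median -0.49). The astrocyte sums were 35814 to 52935 CPM in KO hypoxia, 51027 to 58095 CPM in Flox hypoxia, 49608 to 60969 CPM in KO normoxia and 52412 to 57243 CPM in Flox normoxia. Neuron marker sums were 966 to 3678 CPM in KO hypoxia and 797 to 1228 CPM in Flox hypoxia, and 1010 to 2108 CPM in KO normoxia against 706 to 1049 CPM in Flox normoxia. Within KO hypoxia they were 2724 to 3678 CPM in libraries 1 to 3 and 966 to 2237 CPM in libraries 4 to 7. Of the 7 endothelial markers, 4 were lower in KO hypoxia than in KO normoxia and 4 were higher in KO normoxia than in Flox normoxia. Of the 7 mural markers, 2 were lower in the first of these comparisons and 6 higher in the second, with sums of 147 to 240.4 CPM in KO hypoxia, 109 to 174 CPM in Flox hypoxia, 276 to 332 CPM in KO normoxia and 97.2 to 186 CPM in Flox normoxia. Lypla2, Pde7b, Crim1 and Ppp1r10 were called in the same directions in both. The first comparison was used to pick the genes and the second shares its KO normoxia libraries, so this likeness carries no test. Of the 9 microglial markers, 6 were higher in KO at either oxygen level, with sums of 66.4 to 87.3 CPM in KO hypoxia and 39.4 to 53.0 CPM in Flox hypoxia, and 62.9 to 119.8 CPM in KO normoxia against 47.9 to 55.7 CPM in Flox normoxia. Erythroid RNAs summed to 25.9 to 132 CPM in KO hypoxia and 4.63 to 6.16 CPM in Flox hypoxia, and to 10.1 to 48.5 CPM in KO normoxia against 0.899 to 4.33 CPM in Flox normoxia. They too were higher in KO hypoxia libraries 1 to 3 (75.6 to 132 CPM) than in libraries 4 to 7 (25.9 to 75.0 CPM). Of 9 glucocorticoid-responsive genes, 4 were lower and 1 higher in KO in hypoxia, and again 4 and 1 in normoxia. The 4 lower genes were not the same set, as Ddit4 was called lower only in normoxia (-0.96). In hypoxia Tsc22d3 was at -1.70 ± 0.23, and Cdkn1a, the higher one, at 1.84. The list summed to 903 to 1402 CPM in KO hypoxia and 1851 to 3048 CPM in Flox hypoxia, and to 889 to 1503 CPM in KO normoxia against 2023 to 2258 CPM in Flox normoxia. The part of these changes in the levels of the 9 genes was not tested.

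The relatives and partners of Cebpa and Trib1 showed calls in both directions and in few genes. Over all genes, 10.4% were called higher and 9.37% lower in KO in hypoxia, and 6.90% and 5.27% in normoxia. Among 5 other C/EBP family genes tested, only Ddit3 (CHOP, a stress-induced inhibitor of C/EBP factors) was higher in KO, by 0.44 ± 0.09 on the log2 scale in hypoxia (adjusted p = 0.00266) and by 0.66 ± 0.10 in normoxia (adjusted p = 0.000676, edgeR). Cebpg was lower in KO at both oxygen levels, as Cebpa was, by log2 differences of -0.20 ± 0.06 in hypoxia (adjusted p = 0.0278) and -0.28 ± 0.07 in normoxia (adjusted p = 0.0146). Its call in hypoxia was lost without KO hypoxia 2 (-0.19) or 6 (-0.19), Flox hypoxia 3 (-0.19) or 4 (-0.16), or KO hypoxia 1 to 3 (-0.22). Cebpb (-0.04 ± 0.32 in hypoxia) and Cebpd (0.15 ± 0.20 in hypoxia) were not called. Of 9 genes of the Tribbles and COP1 ligase list, 1 was higher in KO at both oxygen levels. A different gene was lower at each level, Dda1 in hypoxia (-0.20) and Det1 in normoxia (-0.30). These calls were lost in 4 (Dda1) and 10 (Det1) of 28 alternative fits. The higher one was Trib3, a stress-induced Tribbles pseudokinase, at 2.55 ± 0.54 in hypoxia (adjusted p = 0.00415) but at only 0.895 to 2.09 CPM in KO hypoxia. Trib2 (0.35 ± 0.19 in hypoxia, adjusted p = 0.192) and the ligase Cop1 (0.03 ± 0.06, adjusted p = 0.798) were not called.

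Of 13 lipid and metabolic genes known in other tissues as C/EBPα targets, 3 were higher and 3 lower in KO hypoxia than in Flox hypoxia. Over all genes these shares were 10.4% and 9.37%. The median log2 difference of the 13 genes was 0.07, against 0.01 over all genes. Ppara, a nuclear receptor for fatty acid oxidation genes, had 12.1 ± 2.21 CPM in KO hypoxia, 23.5 ± 2.14 CPM in Flox hypoxia, 13.3 ± 3.34 CPM in KO normoxia and 24.2 ± 1.86 CPM in Flox normoxia (SD). It was low in KO at either oxygen level, as Cebpa was, with log2 differences of -0.95 ± 0.14 in hypoxia (adjusted p = 0.000284) and -0.87 ± 0.17 in normoxia (adjusted p = 0.00369, edgeR). Lpl, the lipase that frees fatty acids from lipoproteins, was higher in KO by 1.36 ± 0.28 in hypoxia (adjusted p = 0.00354, edgeR). It was also called higher in KO in normoxia, by 1.27. The insulin receptor gene Insr was lower in KO hypoxia than in KO normoxia by a log2 difference of -0.77 ± 0.13 (adjusted p = 0.00307).

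Among partners of the other genes, the channel subunit Lrrc8c had the pattern of Lrrc8a. Lrrc8c had 15.6 to 19.9 CPM in KO hypoxia, 25.03 to 52.3 CPM in Flox hypoxia, 22.9 to 46.0 CPM in KO normoxia and 32.5 to 45.7 CPM in Flox normoxia. All 7 KO hypoxia libraries were below the 12 others. The log2 differences were -1.32 ± 0.18 against Flox hypoxia (adjusted p = 0.000118) and -0.996 ± 0.18 against KO normoxia (adjusted p = 0.00396, edgeR), and both calls held in every alternative fit. Lrrc8b (0.37 ± 0.17 and -0.36 ± 0.16) and Lrrc8d (0.07 ± 0.10 and -0.12 ± 0.10) were not called in these comparisons. Slc35e1, a relative of Slc35e4, was lower in KO hypoxia than in KO normoxia by -0.59 ± 0.10 (adjusted p = 0.00203, edgeR). Of the 3 SLC35E genes tested, 2 were called lower there, beside 7.77% of all genes. The call of the other, Slc35e2 (-0.24), was lost in 13 of 28 alternative fits.

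Of 16 mitochondrial SLC25 carriers, 6 were lower and 1 higher in KO hypoxia than in Flox hypoxia, beside 9.37% and 10.4% of all genes. In KO normoxia against Flox normoxia 5 were lower, beside 5.27% of all genes. The dicarboxylate carrier Slc25a10 fell in KO by 0.58 ± 0.09 on the log2 scale in hypoxia and by 0.67 ± 0.11 in normoxia (adjusted p = 0.000466 and 0.000952, edgeR), and the oxoglutarate carrier Slc25a11 by 0.27 ± 0.06 and 0.40 ± 0.07 (adjusted p = 0.00726 and 0.00227). Of 11 other phosphodiesterases, 1 was lower in KO hypoxia than in Flox hypoxia, Pde8a (-0.58 ± 0.09, adjusted p = 0.000349, edgeR). Pde8a was also called lower in KO normoxia than in Flox normoxia (-0.42), a call lost in 2 of 28 alternative fits. Of 7 depalmitoylating thioesterases, relatives of Lypla2 among them, and of 10 palmitoyltransferases, 0 were called in KO hypoxia against Flox hypoxia. In KO hypoxia against KO normoxia, where Lypla2 was lower, 2 thioesterases were higher, Abhd17a (0.26 ± 0.06, adjusted p = 0.0109) and Abhd17b (0.28 ± 0.07, adjusted p = 0.0170, edgeR), beside 4.76% of all genes. There 3 palmitoyltransferases were lower, beside 7.77% of all genes, Zdhhc17 among them (-0.30 ± 0.07, adjusted p = 0.0148, edgeR). The calls of Zdhhc9 and Zdhhc5 were lost in 10 and 16 of 28 alternative fits. In KO normoxia against Flox normoxia, 1 thioesterase was lower and 2 palmitoyltransferases were higher, Zdhhc17 among them (0.35 ± 0.08, adjusted p = 0.0122). The Abhd17b call against KO normoxia was lost without KO normoxia 1 (0.24) or 2 (0.25). The close relatives Pde7a (-0.10 ± 0.08) and Lypla1 (-0.09 ± 0.11) were not called. The list of bone morphogenetic protein signalling held 22 genes, the ligands that Crim1 binds among them. In KO hypoxia against Flox hypoxia 9 were lower and 0 higher, beside 9.37% and 10.4% of all genes. The median log2 difference of the list was -0.44, against 0.01 over all genes. The lower genes included the target genes Id2 (-0.78 ± 0.13, adjusted p = 0.000560) and Id1 (-0.62 ± 0.14, adjusted p = 0.00539, edgeR). In KO hypoxia against KO normoxia 3 genes of this list were lower and 0 higher. In KO normoxia against Flox normoxia 1 was higher and 1 lower. The lower one was Id2 (-0.60), a call lost without KO normoxia 3 (-0.52). Of 10 partners of PNUTS and protein phosphatase 1, 0 were called in KO hypoxia against Flox hypoxia. Of 17 targets of hypoxia-inducible factors, 8 were higher and 1 lower there, beside 10.4% and 9.37% of all genes. In KO normoxia against Flox normoxia 6 of the targets were higher and 0 lower. In Flox hypoxia against Flox normoxia 0 were called. Pdk1, which restrains pyruvate oxidation, was higher in KO by 0.70 ± 0.07 in hypoxia (adjusted p = 3.51e-06, edgeR). It was also called higher in KO in normoxia, by 0.43.

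**Figure D4:**
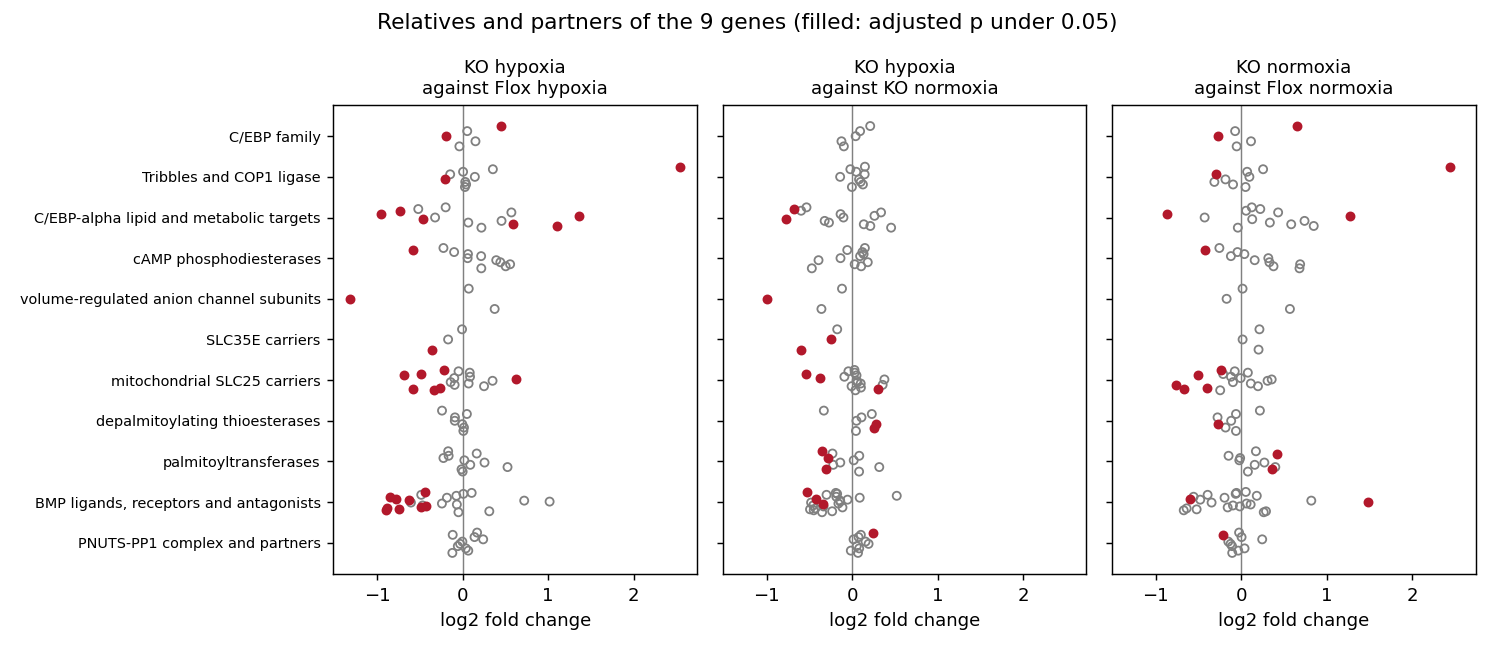
Log2 fold change of each tested relative or partner of the 9 genes, by list, in the 2 comparisons of KO hypoxia and in KO normoxia against Flox normoxia; filled points have an adjusted p under 0.05. The bone morphogenetic protein list has 9 filled points below 0 in KO hypoxia against Flox hypoxia, and the C/EBP family list has 1 on each side.

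Across the 19 libraries the 9 genes did not run as one block. By Pearson's r of log2 CPM, Slc35e4 and Lrrc8a were the most alike (0.95), also in their deviations from the group means (0.79). Trib1 and Slc35e4 had an r of 0.89, but 0.08 once the group means were taken out, and Trib1 and Slc25a34 had 0.81 and -0.67. Cebpa and Lypla2 ran apart (-0.28 and -0.50). Among tested genes averaging 1 or more in log2 CPM, those most like Cebpa included Pptc7 (0.97), Pdp2 (0.94), Cpt2 (0.94) and Pcyt2 (0.94). Those most like Trib1 were Mfsd2a (0.92), a lipid transporter of the blood-brain barrier, then Ramp2 (0.90), Gpd1 (0.89), Slc35e4 (0.89) and the lipid droplet gene Plin4 (0.88). With the group means taken out, r with Cebpa was 0.60 for Pptc7, 0.67 for Pdp2, 0.62 for Cpt2 and 0.25 for Pcyt2, and r with Trib1 was 0.36 for Mfsd2a, 0.47 for Ramp2, 0.55 for Gpd1 and 0.34 for Plin4. These are lower than the values over all libraries, which include the group differences used for picking. The points share groups and libraries, so these values describe the 19 libraries only.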

How the data were processed

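Gene-level counts and RPKM (counts scaled by gene length and library total) were deposited by the authors; per the submitters' processing notes, HISAT2, edgeR and the build GRCm39 were used, while their versions, the counter and its strand setting are not given in the sources used here. RPKM as deposited were counts divided by library total and gene length, and 65.9% of counts between 2 and 21 were even, as would arise if both reads of a pair were counted. Counts were used as deposited, in R 4.3.3, with edgeR 4.0.16 and limma 3.58.1: filterByExpr left 19854 genes, TMM scaled the libraries, and one quasi-likelihood fit held the 4 groups (19 libraries; Flox hypoxia 1 and 2 not analysed here). Adjusted p-values are Benjamini-Hochberg over all genes tested. CPM used TMM-scaled totals. DESeq2 1.42.0, other scalings and filters, a replicate block, a Ddx3y covariate and left-out libraries were alternatives. The tests were checked on simulated data. Over the 4 comparisons they recovered 46.9% to 57.3% of 1.5-fold changes and 81.7% to 91.2% of 2-fold changes. A gene that was not called may therefore still differ.

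The 9 genes and all gene lists were chosen with earlier results of these data known, so no list has a test. Of each list at most 3 called genes, by smallest adjusted p, and a few uncalled close relatives chosen after their values were seen were named, and the 5 genes most like Cebpa and Trib1, of which 1 is not reported here. Promoters came from RefSeq, GRCm38.p6. Labels do not say that replicate numbers pair samples. Deviations of same-numbered libraries from their group means had correlations of 0.12 to 0.27 between KO hypoxia and Flox hypoxia (4 pairs). They were -0.25 to 0.16 between KO hypoxia and KO normoxia and -0.03 to 0.10 between KO normoxia and Flox normoxia. Between Flox hypoxia and Flox normoxia they were 0.02 to 0.03. Differently numbered libraries were not compared.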

Additional observations from a re-analysis of the deposited data

Results flagged for a closer look

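Crim1 held both levels that stood far from the rest of their group by Dixon's test: KO hypoxia 1 at 30.6 CPM, below the 38.1 to 42.5 CPM of the other 6 libraries, and Flox hypoxia 6 at 43.0 CPM, below the 47.2 to 47.9 CPM of the other 3. The 9 genes were checked in each of the 4 groups, which makes 36 groups of values, and chance flags about 1 in 20. KO hypoxia 1 is one of the 3 libraries with high mitochondrially encoded RNA, and Flox hypoxia 6 is one of those with Ddx3y near 0; the part of either in these Crim1 levels was not tested.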

How the results depend on the processing

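Called genes numbered 3917 for KO hypoxia against Flox hypoxia, 2489 for KO hypoxia against KO normoxia, 2415 for KO normoxia against Flox normoxia and 17 for Flox hypoxia against Flox normoxia. With the replicate block the counts were 3221, 3048, 2445 and 16. Without KO hypoxia 1 to 3 they were 1697, 1428 and, for the last comparison, 26; with the 2 groups fitted alone 945 for KO hypoxia against KO normoxia and 34 for the last, and with DESeq2 137 for the last. The 4 counts ran from 2177 to 4735, 1488 to 2719, 1143 to 3152 and 3 to 39 when 1 library was left out. The first moved by over 1.5 times without Flox hypoxia 4 (2228) or 5 (2177). The second did so without KO normoxia 1 (1488) or 2 (1588). The third did so without KO normoxia 1 (1386) or 3 (1143) or Flox normoxia 1 (1366), 2 (1493), 3 (1191) or 4 (1572). The last did so without Flox hypoxia 3 (3), 4 (4), 5 (6) or 6 (39), Flox normoxia 3 (4) or 4 (8), or KO normoxia 1 (27). Reversed signs were all in Flox hypoxia against Flox normoxia, in values near 0: with the replicate block Trib1 became 0.0054, Crim1 -0.044 and Lrrc8a -0.027, and with 1 library left out Crim1 ran from -0.034 to 0.086, Lrrc8a from -0.029 to 0.17 and Slc35e4 from -0.11 to 0.0034. The causes were not tested. The block also ended the calls of Crim1 (KO hypoxia against Flox hypoxia), Cebpa (KO hypoxia against KO normoxia, -0.43), Insr (-0.42) and Slc35e1 (-0.29) (both KO hypoxia against Flox hypoxia), and those counted above of Dda1 (KO hypoxia against Flox hypoxia, -0.19), Det1 (KO normoxia against Flox normoxia, -0.29) and, in KO hypoxia against KO normoxia, Abhd17b (0.24) and Zdhhc5 (-0.32). Of the named relatives, calls also hung on single libraries: Insr against Flox hypoxia was lost without Flox hypoxia 5 or 6 (-0.42 each), Slc35e1 without Flox hypoxia 5 (-0.28) and Lpl in normoxia without KO normoxia 3 (1.07) or Flox normoxia 3 (1.14). With the 2 groups fitted alone, Pde7b (0.39) and Crim1 (0.33) were not called in KO normoxia against Flox normoxia, (Crim1 also not without a filter on low counts, 0.32), nor Cebpa (-0.49), Abhd17a (0.25) and Abhd17b (0.27) in KO hypoxia against KO normoxia, while Lypla2 was called higher in KO hypoxia than in Flox hypoxia (0.22). Of all single-gene results, 2518 kept direction and call, 186 lost the call, 3 gained it and 9 reversed. Counting depth limits Trib3, the gene with the fewest counts named here.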
